A study of Sus scrofa with 8 samples.

Results

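F-box adaptors are the substrate-recognition subunits of SCF ubiquitin ligases, and 31 of their genes are described here in the longissimus dorsi, the long muscle of the back, of weaned piglets that had received melatonin or saline. Members were taken by gene name: FBXO, FBXL or FBXW followed by a digit, without the muscle atrophy genes FBXO32, FBXO30, FBXO40 and FBXO21. Of 54 genes with such a name among 23235 in the deposited table, 50 were left after these exclusions. A mean of at least 1 FPKM (a level scaled by transcript length and library size) over the 8 libraries was reached by 32 of the 50, of which 31 are described, and 9821 genes of the whole table reached it. The level filter used all 8 libraries without regard to treatment. FBXO33, FBXO48, FBXO34, FBXL19 and FBXO22 averaged 0.862 to 0.996 FPKM in controls and passed only through their melatonin libraries. FBXO17 averaged 0.937 FPKM after melatonin and passed only through its controls. FBXL22, at 1.09 FPKM in controls and 0.700 FPKM after melatonin, did not pass. For members so near the filter, the direction of a difference is not independent of it.

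Piglets were Duroc x Landrace x Yorkshire, a commercial cross, and were 28 days old when 6 were assigned to each treatment. After 5 days of adaptation they were dosed by gavage every day for 23 days, the melatonin group with 5 mg per kg body weight in 10 mL of saline and the control group with 10 mL of saline alone. Both groups ate one basal diet. RNA of 4 control and 4 melatonin libraries was analysed here. The labels give only a group and a replicate number, so each library was taken as 1 piglet, and p-values measure the spread between these samples. The comparison asks which muscle transcripts differ after daily oral melatonin, the pineal hormone that signals darkness.

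An SCF ligase is built on a cullin scaffold, CUL1. One end of the scaffold binds the RING protein RBX1, which brings in the ubiquitin-loaded E2 enzyme, and the other end binds SKP1, which holds the F-box motif of one exchangeable adaptor. The adaptor picks the protein to be marked, often only after a kinase or an enzyme that adds sugar has modified it, so each adaptor gives the same core another set of targets. The names follow the part that grips the target: leucine-rich repeats in FBXL proteins, WD40 repeats in FBXW proteins and other or no recognised repeats in FBXO proteins. In skeletal muscle the family is known mainly for FBXO32 (atrogin-1), an adaptor induced during wasting, and most of the remaining members have been studied in other tissues.

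Total counts ran from 53471667 to 60629098 per library, and TMM factors, edgeR's correction for RNA composition, from 0.851 to 1.19. The 6 muscle fibre markers in the table summed to between 70840 and 100600 FPKM in every library. Other tissue components varied between melatonin libraries. A list of 8 fibroblast and matrix genes summed to 488 to 967 FPKM in controls, and to 8557, 671, 2559 and 677 FPKM in melatonin libraries 1 to 4. Of these 8 genes, 5 had an unadjusted p under 0.05 in edgeR, all higher after melatonin. Among all genes tested, 6.67% were higher at that threshold. Adipocyte markers summed to 21.8 to 126 FPKM in controls and to 219, 73.1, 194 and 13.7 FPKM after melatonin, with LEP under 0.1 FPKM on average. Macrophage markers summed to 4.47 to 9.85 FPKM in controls and to 15.7, 9.58, 15.2 and 4.45 FPKM after melatonin. Satellite cell markers, MYF5 and PAX7, summed to 1.68 to 1.96 FPKM in controls. After melatonin they summed to 2.59, 2.02, 4.14 and 2.42 FPKM, above every control in all 4 libraries. The rise lay in MYF5, which averaged 0.862 FPKM in controls and 1.94 FPKM after melatonin. PAX7 averaged 0.950 and 0.855 FPKM. Nerve markers summed to 17.2 to 30.9 FPKM in controls and 33.5 FPKM at most after melatonin, and smooth muscle markers to 51.5 to 92.2 and 59.8 to 103 FPKM. In whole muscle, fewer cells of a type and less RNA per cell cannot be told apart.

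The adaptors were expressed at low to moderate levels. Their mean levels ran from 1.02 FPKM for FBXO17 to 25.1 FPKM for FBXO31, with a median of 2.87 FPKM, and 21 of 31 lay at or under the median level of all genes tested, 4.20 FPKM. A total of 12 members averaged under 2 FPKM, 10 lay from 2 to 5 FPKM, and 9 reached 5 FPKM or more. Only FBXO31, FBXL4, FBXO9 and FBXW4 reached 10 FPKM. FBXO31, an adaptor for cyclin D1, was the highest and varied by only 5.12% (coefficient of variation) among controls. It measured 25.2, 23.3, 26.1 and 26.0 FPKM in the controls and 28.5, 24.6, 22.9 and 24.1 FPKM after melatonin. The spread between control piglets was typical of the table, with a median coefficient of variation of 19.5% over the members and 19.1% over all genes tested, and after melatonin these medians were 20.3% and 23.5%. Counts behind the values ran from 67 for FBXO48 in its lowest library to 9134 for FBXO31 in its highest.

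**Figure D1:**
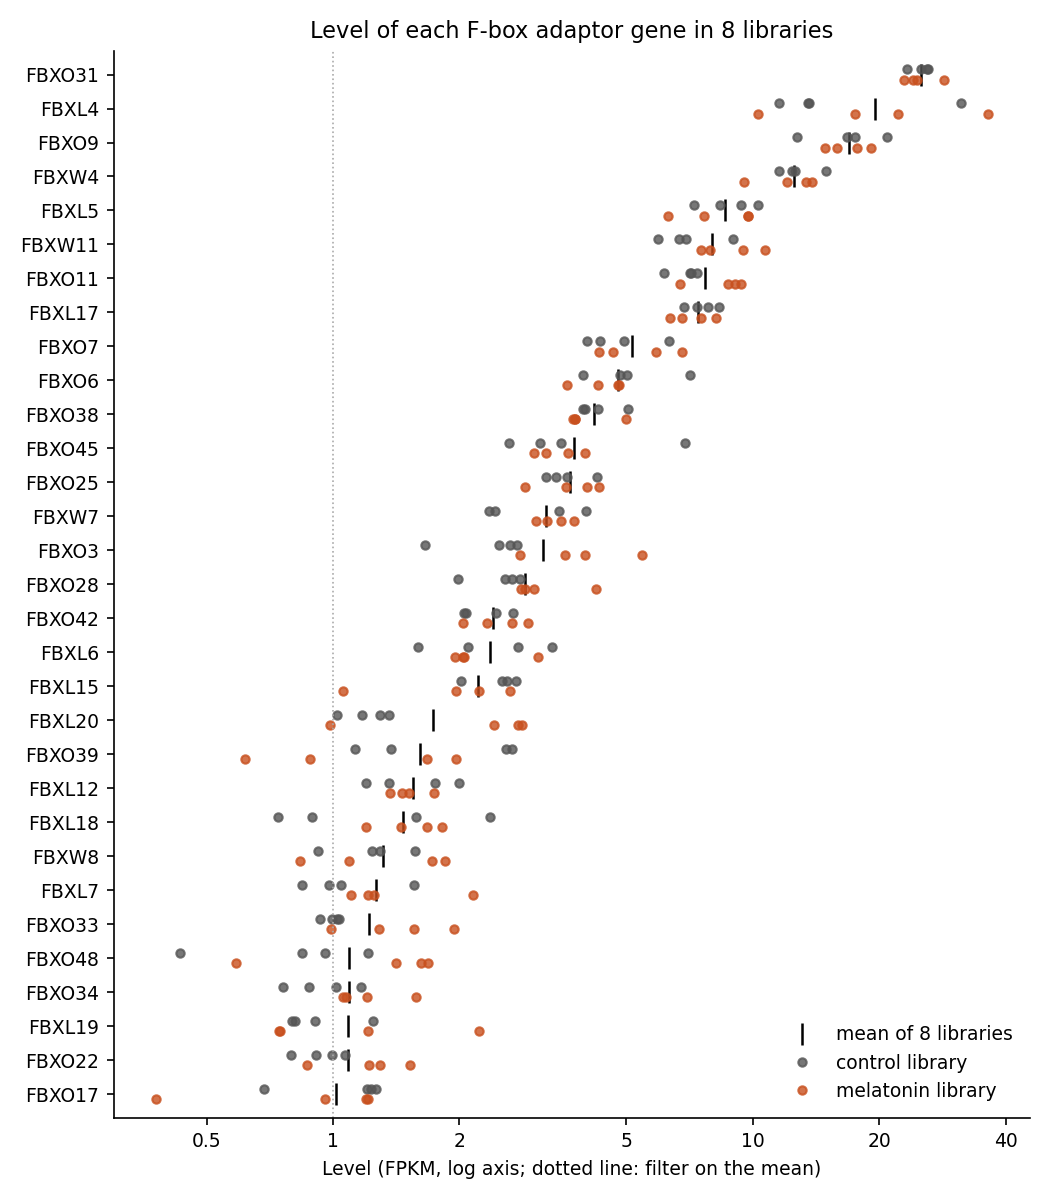
FPKM (log axis) of each of the 31 F-box adaptor genes in 4 control and 4 melatonin libraries (points), ordered by their mean over all libraries (bars). FBXO31 has the highest mean, 25.1 FPKM, and FBXO17 the lowest, 1.02 FPKM, near the dotted line of the filter.

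At the lower edge of the filter, FBXO17 (1.02 FPKM) and FBXO22 (1.08 FPKM) lay just inside, and FBXL22 (0.893 FPKM) and FBXW9 (0.848 FPKM) just outside. Another 16 genes were further under it. FBXO8, FBXO24, FBXO46, FBXL8 and FBXO10 averaged 0.534 to 0.733 FPKM, and FBXO4, FBXL2, FBXO5, FBXL16, FBXO15, FBXO2, FBXL13, FBXO36, FBXO43, FBXO16 and FBXO41 averaged 0.306 FPKM or less. FBXL22, a sarcomeric adaptor known from heart muscle, measured 0.939, 1.15, 1.29 and 0.964 FPKM in controls and 0.395, 0.589, 0.230 and 1.59 FPKM after melatonin. In 3 of the 4 melatonin libraries it was under every control, and in melatonin library 4 it was above every control. FBXL21 was not analysed here.

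No adaptor differed between the groups at an adjusted p under 0.05 in edgeR's quasi-likelihood test, and neither did any of the 9821 genes (0%). The smallest adjusted p of a member was 0.440. DESeq2 called 65 genes and none of the members, whose smallest adjusted p there was 0.170. At an unadjusted p under 0.05, edgeR marked 3 of the 31 adaptors, FBXL20, FBXO3 and FBXO33, beside 1032 of all genes tested (10.5%), a share near the members' own. All 3 were higher after melatonin and 0 members were lower, where 6.67% of all genes were marked as higher and 3.84% as lower. FBXO33 averaged 0.996 FPKM in controls and passed the level filter only through its melatonin libraries. DESeq2 marked the same 3 at an unadjusted p under 0.05.

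As a family the adaptors were spread around 0. Log2 fold changes of melatonin over control were above 0 in 17 members and below 0 in 14, with a median of 0.02, a lowest value of -0.65 and a highest of 0.78. Over all genes tested the median was -0.001 and 49.8% lay above 0. A total of 18 members were within 1.2-fold in either direction, and 3 were at least 1.5-fold apart: FBXL20 and FBXO3 higher and FBXO39 lower. The median size of the log2 fold change, sign aside, was 0.24 for members and 0.19 for all genes. By structural class, 5 of 10 FBXL genes (median -0.03), 3 of 4 FBXW genes (median 0.04) and 9 of 17 FBXO genes lay above 0, and of the 3 genes at an unadjusted p under 0.05, FBXL20 is of the first class and the other two are FBXO genes.

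**Figure D2:**
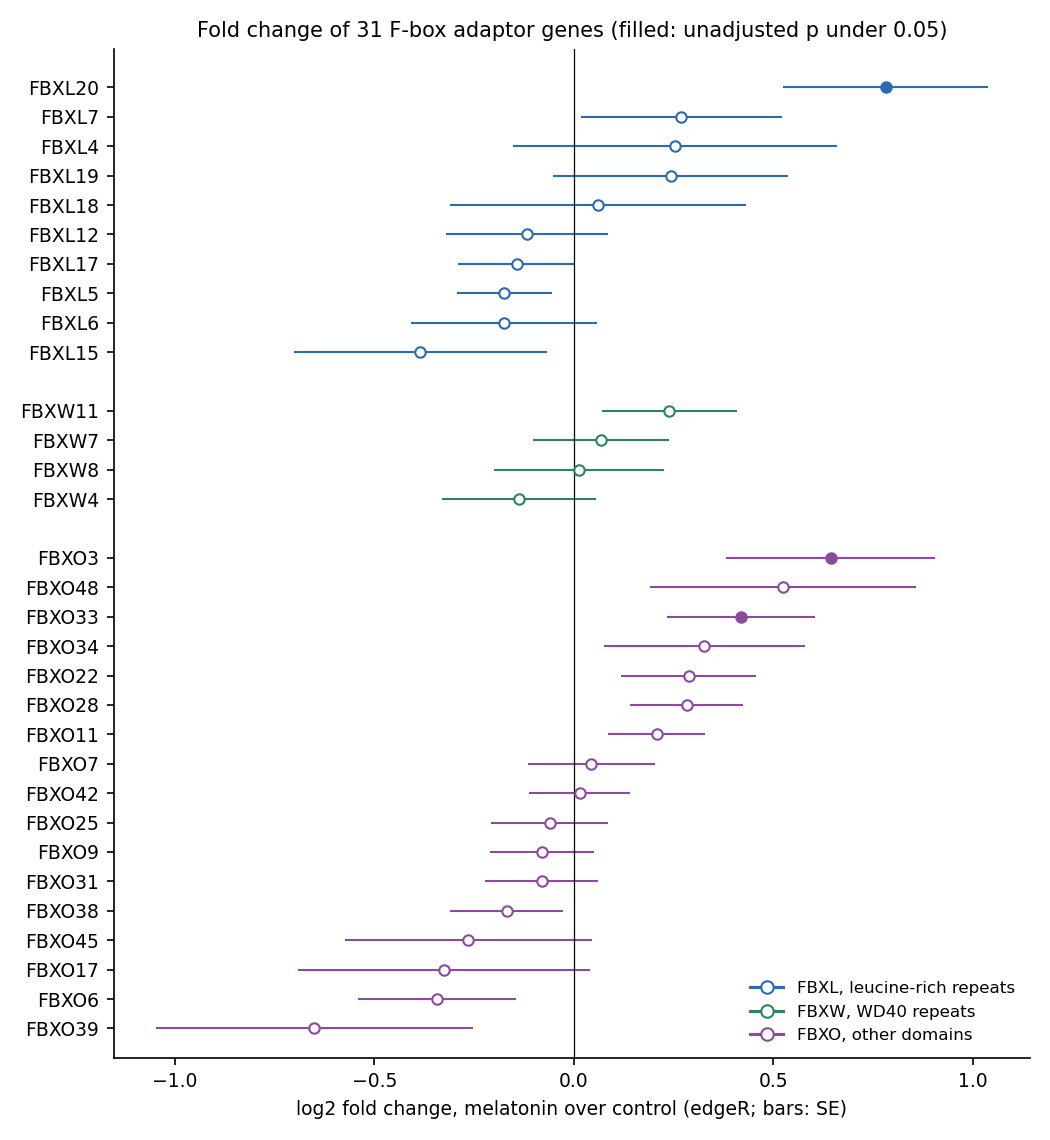
Log2 fold change of melatonin over control (edgeR, bars are the standard error) for the 31 F-box adaptor genes, grouped by class and ordered within it; filled points have an unadjusted p under 0.05. The 3 filled points, FBXL20, FBXO3 and FBXO33, all lie to the right of 0, and the others lie on both sides.

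FBXL20, an adaptor known from synapses, where it acts on the vesicle-release protein RIM1, had the highest fold change of the family. Control libraries measured 1.17, 1.02, 1.36 and 1.29 FPKM, and melatonin libraries 2.42, 2.77, 2.82 and 0.986 FPKM. In its order, melatonin libraries 1 to 3 lay above every control, and melatonin library 4 lay under every control, also on TMM-scaled log2 CPM (2.85, against 2.87 to 3.11 in controls). Means were 1.21 ± 0.15 FPKM (SD, n = 4) in controls and 2.25 ± 0.859 FPKM (SD, n = 4) after melatonin. The edgeR log2 fold change was 0.78 ± 0.26 (SE), or 1.72-fold, with an unadjusted p of 0.0128 and an adjusted p of 0.440. The gene lies on chromosome 12 from 22874160 to 22970410 in the Sscrofa11.1 build.

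FBXO3, which among other targets acts on its fellow adaptor FBXL2, was 1 of 2 members whose groups did not overlap in FPKM; 2.2% of all genes tested were separated in this way. Its control libraries measured 2.48, 2.74, 2.64 and 1.66 FPKM, and its melatonin libraries 3.57, 5.43, 3.99 and 2.79 FPKM. The lowest melatonin library was barely above the highest control. The edgeR log2 fold change was 0.64 ± 0.26 (SE), or 1.56-fold, with an unadjusted p of 0.0351 and an adjusted p of 0.461. On TMM-scaled log2 CPM the groups overlapped, with 3.30 to 4.29 in controls and 4.21 to 5.16 after melatonin. Without melatonin library 2, the highest, the log2 fold change was 0.37 (unadjusted p = 0.124 in edgeR). FBXO3 lies on chromosome 2 from 27146444 to 27184181.

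FBXO33, an adaptor reported to act on the cold-shock protein YBX1, was steady among controls and spread out after melatonin. The controls measured 0.932, 0.994, 1.03 and 1.02 FPKM and melatonin libraries 1.56, 1.29, 1.94 and 0.991 FPKM. Melatonin library 4 thus sat inside the control range and the other 3 above it. The log2 fold change was 0.42 ± 0.19 (SE), with an unadjusted p of 0.0485 and an adjusted p of 0.473 in edgeR. Its position is chromosome 1 from 169877197 to 169915798.

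Without melatonin library 4, the edgeR log2 fold change of FBXL20 was 0.99 ± 0.17 (SE), with an adjusted p of 0.0530. Without melatonin library 2 it was 0.58 ± 0.25 (SE), with an adjusted p of 0.573. Neither adjusted p was under the threshold of 0.05. Without melatonin library 4, 15 of all genes passed it, and 0 of these were members described here. Without melatonin library 2, 0 genes passed it. In the fit without melatonin library 4, 4 members had an unadjusted p under 0.05, FBXO48 being the addition, beside 19.2% of all genes. Melatonin libraries 1 and 3 had the high matrix, adipocyte and macrophage sums. Without both of them the edgeR log2 fold change was 0.72 ± 0.33 (SE) for FBXL20 (unadjusted p = 0.0616). It was 0.87 ± 0.31 (SE) for FBXO3 (unadjusted p = 0.0213 in edgeR) and 0.30 ± 0.23 (SE) for FBXO33 (unadjusted p = 0.237). In melatonin library 2, FBXL20, FBXO3 and FBXO33 were all above every control. The sums of matrix (671 FPKM), adipocyte (73.1 FPKM) and macrophage markers (9.58 FPKM) of that library lay within the control ranges. Adipocyte sums of the controls were 40.9, 21.8, 126 and 29.1 FPKM, so only control library 3 was higher. Of the single markers on these lists, PDGFRA (2.83 FPKM), CD163 (2.85 FPKM) and MRC1 (0.695 FPKM) were above every control there. The other markers of these lists lay within the control ranges. The nerve and satellite cell sums of that library, 33.5 and 2.02 FPKM, lay above the control ranges. In it MYF5 (1.41 FPKM) was above every control and PAX7 (0.605 FPKM) was under every control. The part of tissue makeup in the values of FBXL20, FBXO3 and FBXO33 was not tested.

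In FPKM, 7 of the 31 members had at least 3 melatonin libraries above every control, beside 13.4% of all genes: the 3 above and FBXO11, FBXO28, FBXO48 and FBXO22. On TMM-scaled log2 CPM it was 5 members, without FBXO3 and FBXO22, beside 12.5% of all genes. In 5 of the 7 the exception in FPKM was melatonin library 4, and in FBXO3 and FBXO28 all 4 melatonin libraries were above. Of the 7, FBXO33, FBXO48 and FBXO22 passed the level filter only through their melatonin libraries. One member, FBXO38, had at least 3 melatonin libraries under every control in FPKM, beside 6.18% of all genes. On the TMM scale this was the case for FBXL5 and FBXL17 instead, beside 11% of all genes.

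**Figure D3:**
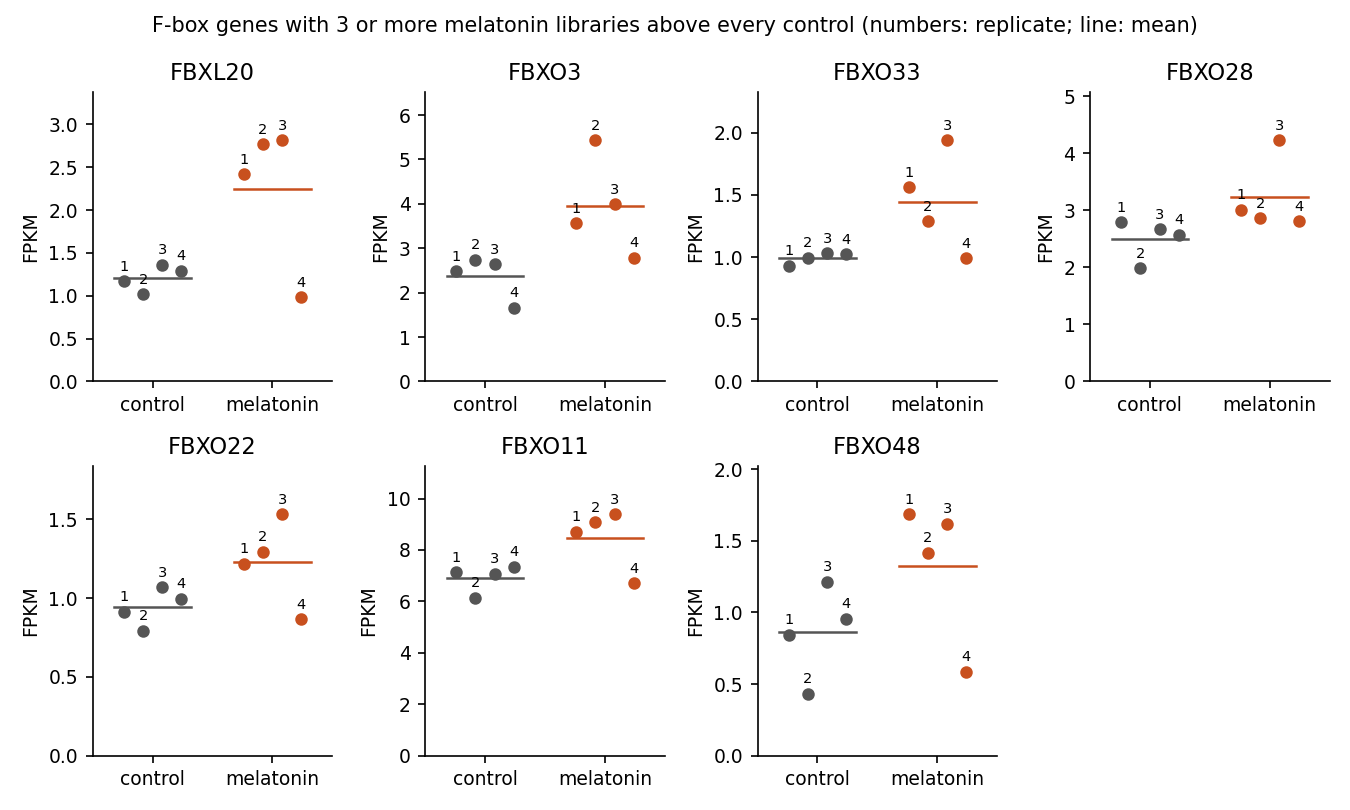
FPKM of the 7 F-box genes with at least 3 melatonin libraries above every control, by group; points carry the replicate number and lines mark the group mean. Melatonin library 4 lies under all controls in FBXL20 and above all controls in FBXO3 and FBXO28.

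FBXW11 (beta-TrCP2) marks the clock proteins of the period family, and also beta-catenin and the NF-kappa B inhibitor. It measured 5.96, 6.67, 6.93 and 8.96 FPKM in controls and 7.90, 9.50, 10.7 and 7.51 FPKM after melatonin. The melatonin libraries lay above the first 3 controls, and control library 4 lay among them. Its edgeR log2 fold change was 0.24 ± 0.17 (SE), with an unadjusted p of 0.190.

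The adaptors tied to mitochondria and iron were among the better expressed. FBXL4, a mitochondrial outer membrane adaptor that restrains the removal of mitochondria, was the most variable of the high members: 13.6, 11.5, 13.6 and 31.3 FPKM in controls and 17.5, 36.3, 22.1 and 10.3 FPKM after melatonin. Control library 4 and melatonin library 2 were the high ones, and the groups overlapped widely. The log2 fold change was 0.25 ± 0.41 (SE). It was 0.65 without control library 4 and -0.23 without melatonin library 2. FBXL5, which senses iron through a hemerythrin domain and degrades the iron regulatory protein IREB2 when iron is plentiful, measured 9.39, 7.26, 8.33 and 10.3 FPKM in controls and 9.75, 7.65, 9.72 and 6.28 FPKM after melatonin, a log2 fold change of -0.17 ± 0.12 (SE). FBXO7, a Parkinson's disease gene whose product also binds the proteasome, measured 4.03 to 6.33 FPKM in controls and 4.31 to 6.79 FPKM after melatonin (log2 fold change 0.04 ± 0.16, SE).

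The adaptors of cell cycle proteins had log2 fold changes from -0.08 to 0.27. FBXW7, which degrades cyclin E, MYC and Notch, measured 3.45, 2.44, 4.0 and 2.35 FPKM in controls and 3.50, 3.23, 3.75 and 3.05 FPKM after melatonin (log2 fold change 0.07 ± 0.17, SE). All its melatonin libraries lay inside the control range. FBXO31 had a log2 fold change of -0.08 ± 0.14 (SE). FBXL7, an adaptor for Aurora A, averaged 1.10 ± 0.313 FPKM (SD, n = 4) in controls and 1.43 ± 0.489 FPKM (SD, n = 4) after melatonin, with one high melatonin library at 2.16 FPKM.

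The adaptors grouped here under transcription and chromatin, FBXO11, FBXO22, FBXO42 and FBXL19, had log2 fold changes from 0.02 to 0.29. Of these, 0 had an unadjusted p under 0.05 in edgeR. FBXL19 was at -0.11 without melatonin library 1, and FBXO42 at -0.05 without control library 3. FBXO11, which degrades the repressor BCL6, measured 7.14, 6.15, 7.07 and 7.35 FPKM in controls and 8.71, 9.07, 9.38 and 6.72 FPKM after melatonin. On TMM-scaled log2 CPM it was the only member with all 4 melatonin libraries above every control, at 5.23 to 5.63 against 5.15 to 5.19, yet the log2 fold change was only 0.21 ± 0.12 (SE, unadjusted p = 0.121). FBXO22, which acts on the histone demethylase KDM4A and on BACH1, measured 0.793 to 1.07 FPKM in controls and 1.22, 1.29, 1.53 and 0.865 FPKM after melatonin. FBXO42, an adaptor for p53, ranged from 2.05 to 2.68 FPKM in controls and from 2.04 to 2.92 FPKM after melatonin. FBXL19, which binds unmethylated CpG islands, had a log2 fold change of 0.24 ± 0.29 (SE); melatonin library 1 measured 2.22 FPKM and the other melatonin libraries 0.743 to 1.22 FPKM.

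Both members grouped here under glycoprotein recognition, FBXO6 and FBXO17, were lower in mean level after melatonin, and the groups of each overlapped in FPKM. FBXO6 measured 4.81, 5.03, 3.94 and 7.07 FPKM in controls and 4.77, 3.60, 4.79 and 4.27 FPKM after melatonin, a log2 fold change of -0.34 ± 0.20 (SE) with an unadjusted p of 0.115 in edgeR. Control library 4 was the highest, and without it the log2 fold change was -0.20. FBXO17 measured 0.685 to 1.27 FPKM in controls and 0.378 to 1.21 FPKM after melatonin.

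FBXO45 works with the ligase PAM at the nerve terminal and is needed for neuromuscular synapses. It measured 2.62, 3.50, 3.11 and 6.89 FPKM in controls and 3.01, 3.99, 3.21 and 3.63 FPKM after melatonin. Control library 4 alone stood high, and the log2 fold change of -0.26 ± 0.31 (SE) was 0.08 without it. FBXO25, the nearest relative of atrogin-1, measured 3.41, 3.22, 4.27 and 3.62 FPKM in controls and 4.29, 2.87, 4.03 and 3.59 FPKM after melatonin (log2 fold change -0.06 ± 0.15, SE). Its groups overlapped.

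Adaptors of growth and energy signalling comprised FBXO9, FBXW8 and FBXO48. FBXO9, which tunes mTOR signalling through TELO2 and TTI1, measured 16.8, 12.8, 17.5 and 20.8 FPKM in controls and 19.1, 14.8, 17.7 and 15.9 FPKM after melatonin. Group means, 17.0 ± 3.31 and 16.9 ± 1.89 FPKM (SD, n = 4 each), were nearly equal. FBXW8, the partner of CUL7 and an adaptor for the insulin receptor substrate IRS1, had a log2 fold change of 0.01 ± 0.21 (SE). FBXO48, which acts on the active form of the energy sensor AMPK, measured 0.845, 0.433, 1.21 and 0.956 FPKM in controls and 1.68, 1.42, 1.62 and 0.586 FPKM after melatonin. It was again the first 3 melatonin libraries that lay above the controls, and the log2 fold change was 0.52 ± 0.33 (SE, unadjusted p = 0.147).

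Of the remaining members, FBXO28 was the other one without overlap in FPKM: 2.79, 1.99, 2.67 and 2.57 FPKM in controls and 3.01, 2.86, 4.23 and 2.81 FPKM after melatonin. The gap between the groups was small, the log2 fold change was 0.28 ± 0.14 (SE, unadjusted p = 0.0725), and on TMM-scaled log2 CPM the groups overlapped. FBXO39 had the lowest fold change of the family. It measured 1.38, 1.13, 2.58 and 2.67 FPKM in controls and 1.68, 1.96, 0.881 and 0.616 FPKM after melatonin, so melatonin libraries 3 and 4 were under every control and 1 and 2 were within the control range. Its log2 fold change was -0.65 ± 0.40 (SE), with an unadjusted p of 0.134 and an adjusted p of 0.562 in edgeR. Without melatonin library 2 it was -1.03 (unadjusted p = 0.0232 in edgeR). With any other single library left out it ran from -0.795 to -0.457, with an unadjusted p of 0.0939 or more in edgeR.

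FBXL15, an adaptor for the BMP regulator SMURF1, had a log2 fold change of -0.38 ± 0.32 (SE), and its lowest library was melatonin 3 at 1.06 FPKM. FBXO34 had 0.33 ± 0.25 (SE), with melatonin library 4 highest at 1.58 FPKM. FBXO38, known for acting on the immune receptor PD-1, had -0.17 ± 0.14 (SE): melatonin libraries 1, 2 and 4 measured 3.73 to 3.78 FPKM, under the lowest control of 3.95 FPKM, and melatonin library 3 measured 4.98 FPKM. FBXL17, which removes wrongly paired BTB-domain proteins, averaged 7.59 ± 0.624 FPKM (SD, n = 4) in controls and 7.20 ± 0.789 FPKM (SD, n = 4) after melatonin. FBXW4, the limb-development gene dactylin, averaged 12.9 and 12.2 FPKM. FBXL6, FBXL12 and FBXL18 completed the family, with log2 fold changes of -0.17, -0.12 and 0.06, and each of their standard errors was larger than the value.

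Members did not share one order of libraries. Control library 4 held the highest FPKM value in 10 members, among them FBXO9, FBXO6 and FBXO45, melatonin library 3 in 9 and melatonin library 1 in 5. Among all genes tested these libraries were highest in 17.0%, 27.9% and 30.7%. The lowest value fell in control library 2 in 8 members and in melatonin library 4 in 7, beside 29.1% and 21.5% of all genes. Summed over the 31 members, FPKM was 146, 132, 152 and 187 in controls and 168, 175, 174 and 137 after melatonin. Melatonin library 4 and control library 2 were the low ones in that sum, and these were also the 2 libraries with the smallest TMM factors, 0.866 and 0.851.

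The members are scattered over the genome. They lie on 14 of the 18 autosomes, and only 1 pair of members lies within 1 Mb, FBXW4 and FBXL15 on chromosome 14, 694 kb apart, with log2 fold changes of -0.14 and -0.38. BTRC, the paralog of FBXW11, lies 50.2 kb from FBXW4 (log2 fold change -0.11), and the left-out FBXO21 lies 87.4 kb from FBXW8. FBXO2 and FBXO6, neighbouring glycoprotein adaptors 19.6 kb apart on chromosome 6, had very different levels, 0.0364 and 4.79 FPKM. A deposited GO annotation that names the SCF complex was held by 23 members and by 0.499% of all genes tested, and one that names ubiquitin by 28 members. Only FBXW11, FBXW7 and FBXW8 were in the KEGG pathway of ubiquitin-mediated proteolysis, and FBXW11 in that of circadian rhythm.

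Another gene of the table overlapped 8 members. FBXL18 (1.47 FPKM) shares its strand with an overlapping gene known by its Ensembl number only, at 2.29 FPKM, and the genes that overlap FBXL17 and FBXO25 on their strand were near 0. On the opposite strand FBXO11 overlaps the mismatch-repair gene MSH6 (1.74 FPKM), FBXO6 overlaps MAD2L2 (4.32 FPKM), FBXO34 overlaps ATG14 (1.85 FPKM), FBXO22 overlaps NRG4 (0.639 FPKM) and FBXO17 overlaps MRPS12 (4.85 FPKM). Whether the counting used strand is not given in the sources used here, so the values of these members are uncertain to that extent. FBXL20, FBXO3 and FBXO33 overlap no other gene of the table.

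Of the core that the adaptors plug into, SKP1, RBX1 and RNF7 were each more abundant than any of the 31 adaptors described. SKP1, the F-box binding subunit, measured 102 ± 8.90 FPKM (SD, n = 4) in controls and 111 ± 5.98 FPKM (SD, n = 4) after melatonin, a log2 fold change of 0.05 ± 0.13 (SE). The scaffold CUL1 averaged 9.94 and 10.8 FPKM (0.05 ± 0.13, SE), and the RING protein RBX1 34.9 and 33.5 FPKM (-0.17 ± 0.12, SE). Its paralog RNF7 averaged 30.4 and 26.8 FPKM (-0.26 ± 0.14, SE, unadjusted p = 0.0922). Of the 5 core genes 3 lay above 0, with a median log2 fold change of 0.05, and 0 had an unadjusted p under 0.05.

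SCF ligases are switched on when NEDD8 is joined to the cullin, and switched off and rebuilt by the COP9 signalosome and the exchange factors CAND1 and CAND2. Of 8 NEDD8 pathway genes tested, 2 lay above 0 (median -0.09) and 0 had an unadjusted p under 0.05. NEDD8 averaged 19.3 and 18.1 FPKM (log2 fold change -0.20 ± 0.17, SE), and its conjugating enzyme UBE2M 28.9 and 25.0 FPKM (-0.28 ± 0.17, SE). Of the 12 signalosome and CAND genes, 10 lay below 0, with a median of -0.14, and 1 had an unadjusted p under 0.05. That gene was the signalosome subunit COPS3, at 34.0, 35.7, 31.2 and 43.7 FPKM in controls and 25.5, 28.8, 28.0 and 29.4 FPKM after melatonin. In FPKM every melatonin library was under every control, and 2.2% of all genes were separated in either direction. In counts scaled by the TMM factors the groups overlapped, as melatonin library 4 (5771 counts) lay above control library 3 (5442 counts). The log2 fold change of COPS3 was -0.44 ± 0.18 (SE), and the adjusted p was 0.463 in edgeR. COPS2, another subunit, went the other way, at 9.60 and 11.8 FPKM (0.22 ± 0.14, SE).

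Among 9 partner E2 and E3 enzymes 4 lay above 0 (median -0.08) and 0 had an unadjusted p under 0.05. The E2 enzyme CDC34, which extends ubiquitin chains on SCF targets, was the most abundant at 301 and 258 FPKM (log2 fold change -0.28 ± 0.24, SE), and UBE2D4 had -0.28 ± 0.21 (SE). F-box genes with other kinds of names gave a median of 0.01 over 5 tested. SKP2, the adaptor of the cell cycle inhibitor CDKN1B, averaged 2.57 and 2.09 FPKM (-0.36 ± 0.32, SE), and BTRC 2.49 and 2.43 FPKM. The histone demethylase KDM2B, which also carries an F-box, had a log2 fold change of 0.14 ± 0.14 (SE). Over these 39 partner genes together, 14 lay above 0, the median was -0.09 and 1 had an unadjusted p under 0.05. The adaptors of another ligase family, the BTB proteins that serve cullin 3, were taken by the KLHL, KBTBD and BTBD names as a comparison: 18 of 35 lay above 0, the median was 0.00, and 1 had an unadjusted p under 0.05.

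**Figure D4:**
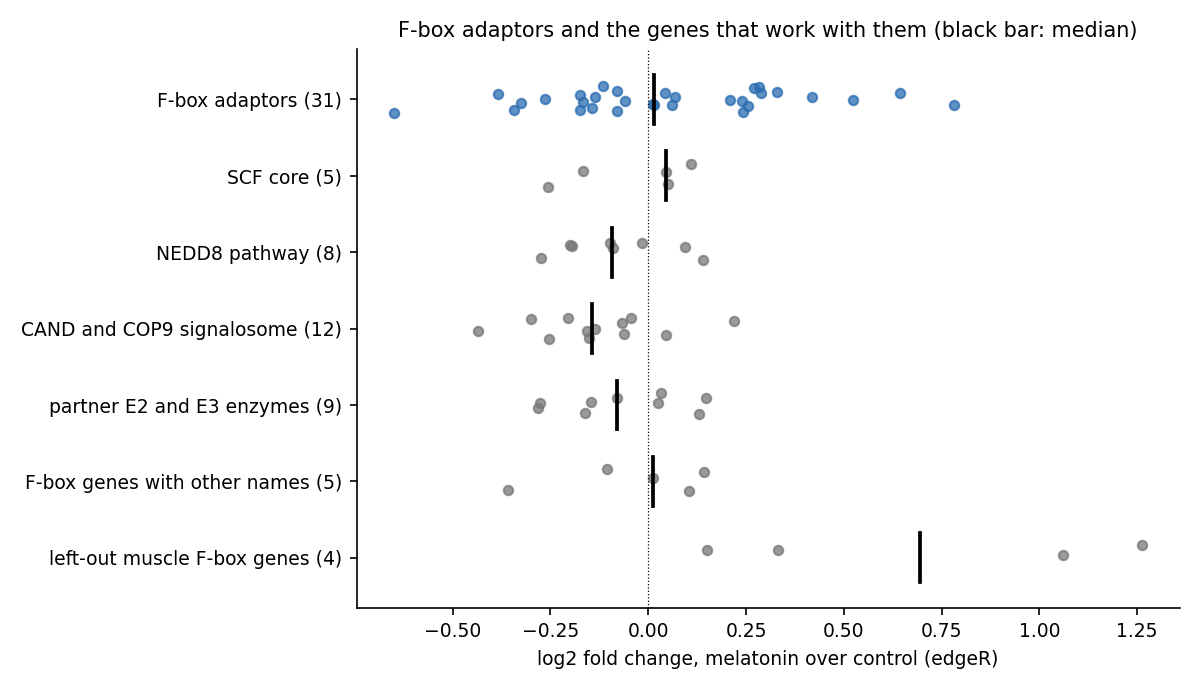
Log2 fold change of melatonin over control (edgeR) for single genes (points) of the 31 F-box adaptors, the lists of genes that work with them and the left-out muscle F-box genes, with a bar at each median and the number of genes in brackets. Medians of the adaptors (0.02) and of the core (0.05) lie near 0, and that of the 4 left-out muscle F-box genes lies at 0.70.

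The 4 muscle F-box genes that the family definition leaves out give the scale of difference reached by their relatives in the same libraries. FBXO32 (atrogin-1) measured 9.58, 6.39, 11.2 and 12.3 FPKM in controls and 13.5, 25.4, 55.6 and 8.91 FPKM after melatonin (log2 fold change 1.26 ± 0.45, SE, unadjusted p = 0.0187 in edgeR), and FBXO30 measured 2.08, 1.96, 2.75 and 2.03 FPKM in controls and 4.58, 5.77, 7.79 and 1.87 FPKM after melatonin (1.06 ± 0.31, SE, unadjusted p = 0.00700). FBXO21 had 0.33 ± 0.14 (SE, unadjusted p = 0.0370) and FBXO40, at a mean of 85.5 FPKM the most abundant of these relatives, 0.15 ± 0.28 (SE). In FPKM, melatonin libraries 1 to 3 were above every control in both FBXO32 and FBXO30, as in FBXL20. At least 3 melatonin libraries were above every control in 13.4% of all genes. Once counts are scaled, FBXO32 in melatonin library 1 (4952 counts, TMM factor 1.19) lies under control library 4 (4886 counts, factor 1.02). The adjusted p of neither FBXO32 nor FBXO30 passed 0.05.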

How the data were processed

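Libraries of poly(A) RNA, their second strand marked with dUTP, were sequenced in paired ends, per the labels' protocols. Per the file headers, the authors gave a count (whole, not normalised) and an FPKM value for each gene. The submitters' processing notes list FastQC, StringTie, DESeq2 and Sscrofa11.1. No aligner or annotation release is stated there; both are not given in the sources used. All 16 value columns belong to a library.

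Counts of the 9821 genes with a mean of at least 1 FPKM were tested in R 4.3.3 by edgeR 4.0.16: TMM scaling, quasi-likelihood F test in legacy form, no covariate, Benjamini-Hochberg adjustment over all of them, threshold 0.05. The biological coefficient of variation was 28.0%. A standard error is the log2 fold change divided by the root of F. The script was tested on simulated data. TMM-scaled log2 CPM (log2 of counts scaled to library size) uses a prior count of 2. There were 18 alternatives: DESeq2 1.42.0, bias-adjusted edgeR, limma 3.58.1 on log2(FPKM + 1) and log2(FPKM + 0.1), other scalings and filters, a replicate block and libraries left out.

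The members and lists were chosen with earlier results of these data known, and 1 gene that the naming rule selects is not reported here. The rule names members at an unadjusted p under 0.05 (or, in a direction with none, the 3 of smallest p), the 3 of highest level and a fixed set with known roles; other members are given for completeness. Of partners it names SKP1, CUL1, RBX1, SKP2, BTRC and the 2 of smallest p per list.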

Additional observations from a re-analysis of the deposited data

Results flagged for a closer look

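In each of 62 sets of 4 libraries (31 members, each group), the library farthest from the other 3 was compared with Dixon's 95% limit for 4 samples. Chance alone passes about 1 in 20 such sets, and 6 passed. FBXL4, the mitochondrial adaptor, measured 31.3 FPKM in control library 4, with the other controls at 11.5 to 13.6 FPKM. FBXO38 measured 4.98 FPKM in melatonin library 3, with the others at 3.73 to 3.78 FPKM. FBXO28 measured 4.23 FPKM in melatonin library 3, with the others at 2.81 to 3.01 FPKM. In melatonin library 1, FBXL6 measured 3.08 FPKM (others 1.96 to 2.06 FPKM) and FBXL7 measured 2.16 FPKM (others 1.11 to 1.25 FPKM). FBXO17 was low in control library 3, at 0.685 FPKM, with the other controls at 1.21 to 1.27 FPKM. Of the 5 high values, 4 lie in melatonin libraries 1 and 3. These libraries held the highest FPKM value of 30.7% and 27.9% of all genes tested, and both had a TMM factor of 1.19. On TMM-scaled log2 CPM, FBXO38 measured 4.27 in melatonin library 3, with the others at 3.88 to 4.31. FBXO28, FBXL6 and FBXL7 were still highest in the library named. Melatonin libraries 1 and 3 also hold the highest matrix and adipocyte marker sums. The part of scaling and of those components in the values was not tested.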

How the results depend on the processing

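The count of genes at an adjusted p under 0.05 was 0 in edgeR, 65 in DESeq2 and 0 to 15 with 1 library left out, and the members described among them were 0 in every alternative. The count of adaptors at an unadjusted p under 0.05, 3 in the fit reported, was 1 at a mean FPKM of at least 5 (which tests 9 members, none of those 3, and marks FBXO11), 1 without melatonin replicates 1 and 3 and 1 to 4 with 1 library left out. Adaptors above 0 were 4 of the 9 at the stricter filter. The median log2 fold change of the family, 0.015, was -0.038 at the stricter filter and -0.002 with no filter, and ran from -0.007 to 0.065 with 1 library left out. In limma the family median was 0.098 and 0.072 (pseudocounts 0.1 and 1), with 19 members above 0 in each. The medians of all genes tested there were 0.076 and 0.063. The 4 partner and left-out genes at an unadjusted p under 0.05 became 2 at the stricter filter and 1 to 8 with 1 library left out. Of the 4, FBXO30 (3.60 FPKM) and FBXO21 (3.32 FPKM) are under the stricter filter and were not tested there. FBXL20, FBXO3, FBXO33, FBXO11, FBXW11, FBXL5, FBXO6 and FBXO39 kept their sign in all alternatives that gave a value. Other members did not: without melatonin replicates 1 and 3, FBXO31 had a log2 fold change of 0.064, FBXO7 -0.017 and FBXO45 0.034. In limma FBXO9 had 0.008 and 0.007 and FBXO25 0.018 and 0.016 (pseudocounts 0.1 and 1). With 1 library left out, ranges were -0.145 to 0.018 for FBXO31, -0.227 to 0.653 for FBXL4, -0.139 to 0.008 for FBXO9, -0.052 to 0.159 for FBXO7, -0.055 to 0.205 for FBXW7, -0.135 to 0.008 for FBXO25 and -0.434 to 0.077 for FBXO45. The cause was not tested.

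Same-numbered libraries of the groups shared deviations only weakly (correlations 0.181, 0.069, 0.169 and -0.027) and not every library correlated best with its own number, so the numbers were not read as pairs. With a replicate block, 2 adaptors had an unadjusted p under 0.05 (FBXO3 and FBXL20) and 0 genes were called. The lowest count of a member in a library was 67, and the number of libraries, 4 per group, limits the precision of every value.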

Other observations

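Genes of known targets of the family were counted from a list of 19, of which 17 were tested. Their log2 fold changes were above 0 in 8, with a median of -0.01, and 2 had an unadjusted p under 0.05 in edgeR, both higher after melatonin. Among all genes tested, 10.5% had such a p in either direction, a share near that of the list, and 6.67% were higher. BNIP3L, a mitophagy receptor held in check by FBXL4, measured 6.23, 3.79, 5.23 and 4.66 FPKM in controls and 9.52, 7.85, 10.9 and 5.38 FPKM after melatonin (0.65 ± 0.16, SE, unadjusted p = 0.00250). CDKN1B, the cell cycle inhibitor that SKP2 marks, measured 24.4, 20.9, 25.4 and 22.9 FPKM in controls and 33.9, 54.2, 58.0 and 21.6 FPKM after melatonin (0.75 ± 0.26, SE, unadjusted p = 0.0158). In FPKM, melatonin libraries 1 to 3 lay above every control in both, and melatonin library 4 lay within the control range. In FBXL20 that library lay under every control. At least 3 melatonin libraries lay above every control in 13.4% of all genes. IREB2, the iron regulatory protein that FBXL5 marks, measured 5.67 to 6.61 FPKM in controls and 6.70 to 8.41 FPKM after melatonin (0.25 ± 0.13, SE, unadjusted p = 0.0915 in edgeR). Its groups did not overlap in FPKM, where 2.2% of all genes were separated. They overlap once counts are scaled: control library 2 had 2135 counts at a TMM factor of 0.851, and melatonin library 1 had 2558 at 1.19. These are transcript levels, and the adaptors act on proteins, which were not measured. The adjusted p of every gene on the list was 0.440 or more in edgeR; in DESeq2 it was 0.0573 for BNIP3L and 0.184 for CDKN1B.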
